A study of Mus musculus with 12 samples.

Results

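The response of wild-type mouse hearts to ischemic preconditioning (IP) was described across all measured genes, by setting 3 arrays of BL6/C57 hearts taken after IP against 3 arrays of BL6/C57 control hearts. These 6 arrays were chosen by their labels out of 12 in the study, which also holds 3 IP and 3 control arrays of A2BAR-/- hearts (mice lacking the adenosine A2B receptor, on the same BL6/C57 background). All mice were males aged 12 weeks, and RNA came from the left ventricular area at risk, the muscle supplied by the artery that is closed. For IP, 5 min of ischemia and 5 min of reperfusion were given 4 times, and the tissue was frozen after 2 h of further reperfusion. The labels call the control mice sham operated in one place and untreated in another, so surgery and IP cannot be told apart where the controls had no operation. The wild-type mice are called littermates of the A2BAR-/- mice in one label and a purchased strain in another. Whether separate mice gave the arrays of a group is not stated, and p-values therefore measure only the spread between these samples, which may be technical. RNA was measured on Affymetrix arrays as 1 signal per probe set, and 14044 genes were tested, each through its brightest probe set.

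IP is a series of short coronary closures that protects the heart muscle against a later long one. Brief ischemia releases adenosine, cytokines and oxygen radicals, which act on muscle cells, vessel walls and blood leukocytes. Within hours this is followed by transcription of early factors, cytokines and chemokines, and by feedback inhibitors that end the signals. The A2B receptor is a low-affinity adenosine receptor that raises cAMP.

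Levels are given as array signals in linear units, and changes as log2 differences of signal + 16, IP minus control, with the standard error (SE) from limma and n = 3 arrays in each group unless stated. A gene is said to have risen or fallen where its limma p-value, adjusted over all 14044 genes, was below 0.05. Arrays of a group had rank correlations between 0.976 and 0.979, and pairs of 1 IP and 1 control array between 0.946 and 0.963. Median signals were between 73.8 and 81.3 on the IP arrays and between 66.7 and 78.5 on the control arrays. Gene lists were drawn by function, and families by the letters with which gene symbols begin, so that a family can hold a related gene that is no member in the strict sense. The third control array holds an unbroken run of 1425 probe sets at 0, which was treated as missing, so that 852 of the genes rest on 2 control arrays. With these zeros kept as values the calls of Ccn2, Pdk4, Pmp22, Mrpl34, Timm8a1 and Nr4a1 ended (adjusted p between 0.0587 and 0.484). The tissue label was borne out by its markers: all 7 cardiomyocyte genes were measured, with summed signals of 333570 to 337581 in IP hearts and 277362 to 305784 in control hearts, and of 3 atrial genes Myl7 and Sln lay below the filter on low signals and Myl4 read 179 to 234 in IP hearts and 207 to 247 in control hearts. The ratio of 3' to 5' signals of beta-actin, a sign of RNA quality, was 2.33 to 2.62 on IP arrays and 2.06 to 2.48 on control arrays.

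The response to IP was lopsided: more genes fell than rose, and the genes that rose moved farther. Of the 14044 genes, 918 were higher (6.54%) and 1410 lower (10%) in IP hearts, 16.6% in all. At least 2-fold changes numbered 369 upward and 198 downward. At least 4-fold changes numbered 112 upward and 4 downward (Pcdh12, Aplnr, Upk3b and Zfp799), and 40 genes rose and none fell at least 8-fold. With the first IP array left out, 580 genes were higher and 840 lower, and with the second control array left out 883 were lower. The median change was 0.84 among the genes that rose, -0.61 among those that fell and -0.0537 over all genes. Most fallers therefore moved little: 14% of them were at least 2-fold lower, whereas 40.2% of the risers were at least 2-fold higher.

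**Figure D1:**
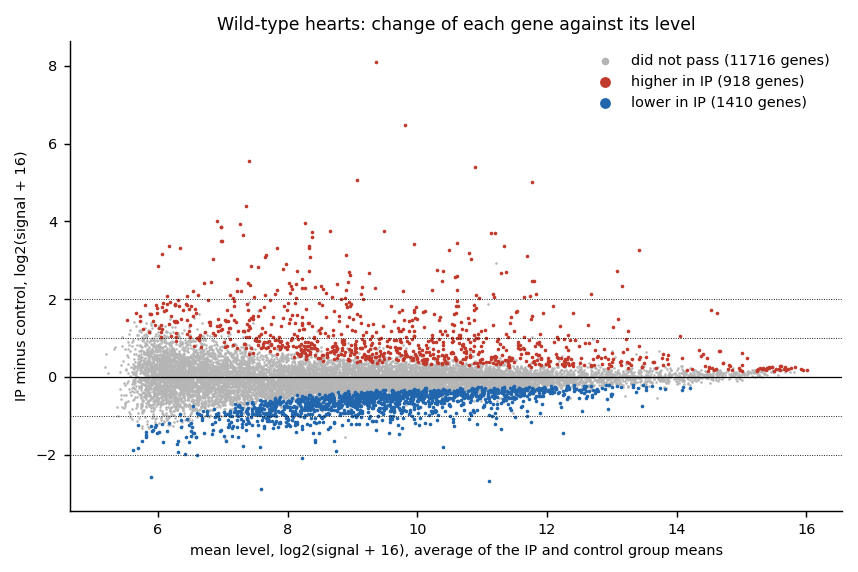
Each point is 1 of 14044 genes, with its mean level in the 6 wild-type arrays on the x axis and its IP minus control difference on the y axis, both in log2(signal + 16) units. Red points rose, blue points fell and grey points did not pass. The 112 genes that rose at least 4-fold spread over nearly the whole range of levels, while the 1410 fallers form a dense band below 0.

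The risers and fallers were chosen on these 6 arrays, so that their values per array are a description. Against the mean of the control arrays, the median of the 918 risers was 0.94, 0.75 and 0.83 on the 3 IP arrays, and that of the 1410 fallers was -0.62, -0.56 and -0.61. The IP and control arrays did not overlap in 881 of the risers and 1389 of the fallers, and over all genes they did not overlap in 33.5%. Genes were also split into 5 equal classes by mean signal. The share that rose was 2.67% in the dimmest class and 10% in the brightest. The share that fell was 1.82% in the dimmest class, 9.15%, 14.8% and 14.1% in the next 3 and 10.3% in the brightest, so that fallers were most frequent in the middle of the range.

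The genes that rose most were short. By the positions in the authors' table, the median span from start to end was 8.25 kb for the 108 of 112 genes that rose at least 4-fold with a position, 18.4 kb for those that rose 2-fold to 4-fold and 26.6 kb for those that rose by less. It was 19.5 kb for the genes that fell by less than 2-fold, also 19.5 kb for those that fell by more, and 21.0 kb over all genes with a position. These spans are a description, and no test was made between them.

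Il6 and 3 chemokine genes that lie on chromosome 5 were among the 8 genes that rose at least 16-fold. Their promoters are shown because each holds the same element for NF-kB, the transcription factor that carries cytokine and Toll-like receptor signals to the nucleus. These 4 genes were picked for holding it, so they do not show how common it is among the risers. The others of the 8, among them the chemokine gene Cxcl5 (log2 5.56), are not shown. The sequences are RefSeq promoters of build GRCm38.p6, from 250 bases before to 50 bases after the start of the gene, read 5' to 3', and capitals mark the match to GGGANTTTC, searched on both strands.
Il6 (chr5:30012864-30013163, plus strand): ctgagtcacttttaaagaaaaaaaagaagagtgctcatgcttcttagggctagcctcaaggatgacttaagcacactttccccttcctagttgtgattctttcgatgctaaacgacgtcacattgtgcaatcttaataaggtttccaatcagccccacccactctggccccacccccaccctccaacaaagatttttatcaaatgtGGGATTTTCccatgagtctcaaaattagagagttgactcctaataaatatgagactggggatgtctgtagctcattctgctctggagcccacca
Cxcl1 (chr5:90890995-90891294, plus strand): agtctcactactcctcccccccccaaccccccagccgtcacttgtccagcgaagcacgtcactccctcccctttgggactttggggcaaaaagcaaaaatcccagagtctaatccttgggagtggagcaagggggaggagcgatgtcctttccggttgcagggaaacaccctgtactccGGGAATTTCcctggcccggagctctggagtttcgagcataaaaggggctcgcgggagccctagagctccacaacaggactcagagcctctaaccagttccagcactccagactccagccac
Cxcl2 (chr5:90903649-90903948, plus strand): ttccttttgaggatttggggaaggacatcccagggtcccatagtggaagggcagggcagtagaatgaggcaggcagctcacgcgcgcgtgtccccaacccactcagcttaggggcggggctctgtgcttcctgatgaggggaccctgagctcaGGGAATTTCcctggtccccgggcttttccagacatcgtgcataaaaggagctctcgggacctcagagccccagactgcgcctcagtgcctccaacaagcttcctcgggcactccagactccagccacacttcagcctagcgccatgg
Cxcl3 (chr5:90785851-90786150, plus strand): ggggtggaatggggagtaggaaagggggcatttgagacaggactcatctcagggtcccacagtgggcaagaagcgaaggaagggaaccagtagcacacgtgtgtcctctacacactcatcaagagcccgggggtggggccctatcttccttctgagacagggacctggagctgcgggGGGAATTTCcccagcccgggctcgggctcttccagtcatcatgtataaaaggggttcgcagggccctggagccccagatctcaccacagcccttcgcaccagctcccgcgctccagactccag
The first base of the match lay 44 bases before the start of Il6, 71 before Cxcl1, 97 before Cxcl2 and 73 before Cxcl3. It read GGGATTTTC in Il6 and GGGAATTTC in the 3 chemokine genes. The letters occur in 310 of 27025 mouse promoters of this length (1.15%). A promoter was found for 77 of the 112 genes that rose at least 4-fold (68.8%), too few for a share among them to be given. A match is a description of the sequence, and whether NF-kB bound there was not measured.

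Cxcl1, Cxcl2 and Cxcl3 encode ligands of the neutrophil receptor CXCR2, and IL-6 is the cytokine that starts the acute-phase response. Il6 read 9689, 10902 and 12219.7 units on the IP arrays, against 24.1, 13.3 and 37.6 on the control arrays. Cxcl1 read 19920.5, 19766 and 19596 on the IP arrays, against 661, 705 and 459 on the control arrays. For both genes the IP arrays lay far above every control array. Cxcl2 read 8379.9, 8319 and 8870.4 on IP arrays and 172, 76.5 and 33.1 on control arrays. Cxcl3 reached only 623, 271 and 596 on IP arrays, against 5.11, 29.97 and 11.5 on control arrays. The control signals of Cxcl3 and Il6 are low, and whether they lie above background was not tested, so the size of these changes depends on the offset of 16.

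Of 37 measured chemokines and chemokine receptors 17 rose (45.9%) and 1 fell, and the median change was 0.64. The risers reached beyond the neutrophil ligands to Ccl2, which draws monocytes, at 3508, 3086 and 3079 units in IP hearts and 339, 264 and 255 in control hearts (log2 3.43 ± 0.26), and to Ccl3 (4.41 ± 0.54). The one faller was Cx3cr1, the fractalkine receptor of resident macrophages and patrolling monocytes, at 53.7, 17.7 and 18.2 in IP hearts and 88.4, 227 and 100.2 in control hearts (-1.73 ± 0.48, limma adjusted p = 0.023). That call ended without the second control array (adjusted p = 0.109), with zeros kept (0.0533), without the second IP array (0.0713) and without the third (0.0754). Neutrophil markers moved with these genes. Of 10, Camp and Ltf lay below the filter, Cxcr2 and Ly6g had no probe set matched to them here, and 5 of the other 6 rose. The summed signal of the 5 with values on all arrays was 7712 to 22630 in IP hearts and 761 to 8405 in control hearts, the highest control value being that of the third array. The part of these cells in the chemokine and cytokine values was not tested, and in these bulk samples more cells of a type and more RNA per cell cannot be told apart.

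Of the selectins, which let leukocytes roll on activated endothelium, Selp rose by 3.73 ± 0.28 and Sele by 3.65 ± 0.33. Selp read 1368, 1190.1 and 1056 in IP hearts, against 38.5, 84.9 and 124 in control hearts. The endothelium is the usual source of Sele. These genes rose in hearts in which 3 of 6 endothelial markers, given below, fell.

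**Figure D2:**
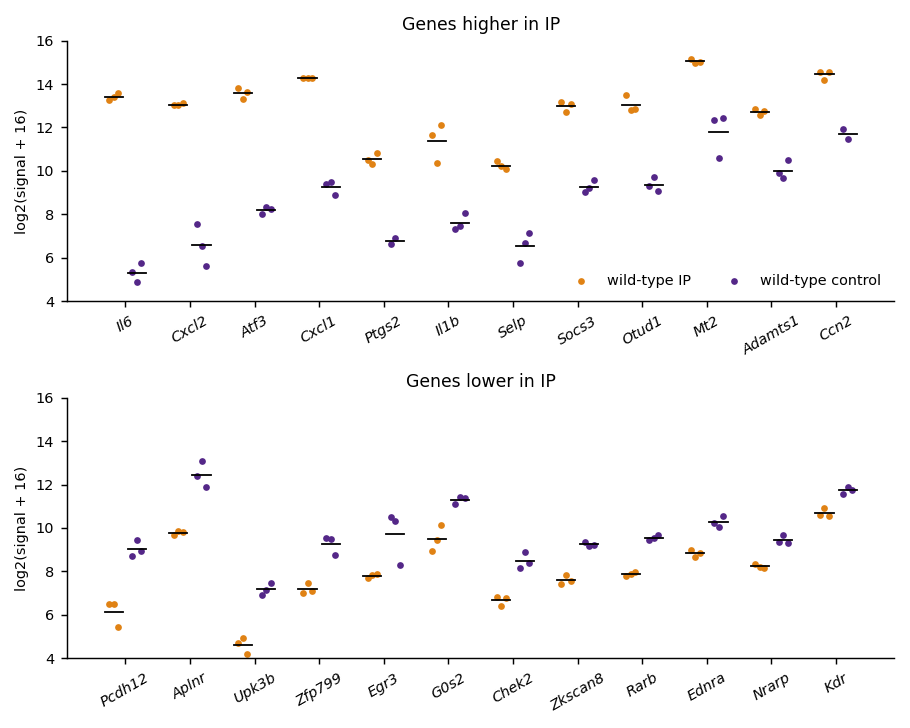
Signals of 12 genes that rose (top) and 12 that fell (bottom) on each wild-type array, in log2(signal + 16) units, with IP arrays (orange) left of control arrays (purple) and a bar at each group's mean. IP and control arrays do not overlap in any of the 24 genes, which was a condition for naming most of them. Over all genes they did not overlap in 33.5%. Ptgs2 and Ccn2 have 2 control arrays.

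The IL-6 family signals through gp130 and STAT3, and the SOCS proteins that STATs induce switch the receptors off. Of 23 genes of this pathway 8 rose and 3 fell, with a median of 0.19. Socs3, the inhibitor of gp130 signalling, read 9375, 6619.8 and 8622 in IP hearts, against 503, 581 and 749.6 in control hearts (3.72 ± 0.26). Of the other ligands, Osm rose by 2.44 ± 0.48 and Lif by 1.86 ± 0.37, both with low control signals. The fallers included Cish and Pias3 (-0.42 and -0.58), named after their values were seen, and each lost its call under at least 6 of the 18 alternative settings.

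IL-1, TNF and Toll-like receptors feed NF-kB. Of 28 genes of these sensors 13 rose and none fell (median 0.76). Il1b read 3161, 1288 and 4399 in IP hearts and 142, 159.6 and 253 in control hearts. Il1b rose by 3.75 ± 0.48 and its natural antagonist Il1rn by 3.03 ± 0.42, and so did Tnfrsf12a, the receptor of the cytokine TWEAK, by 1.65 ± 0.19. Tnf itself had low signals, at 82.6, 116 and 143 in IP hearts and 68.3, 10.4 and 10.1 in control hearts. Its call ended without the second or the third IP array, without the second or the third control array and with zeros kept (adjusted p between 0.0508 and 0.0922).

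Of 25 NF-kB subunits, inhibitors and adaptors 12 rose and 1 fell, with a median of 0.53. Several of the risers are inhibitors of the pathway. Tnfaip3, a ubiquitin-editing enzyme that ends NF-kB signalling, read 1439.5, 1389 and 1445 in IP hearts, against 203, 327 and 332 in control hearts. Nfkbiz and Bcl3, atypical relatives of the inhibitor Nfkbia that act in the nucleus, rose by 2.24 ± 0.17 (2 control arrays) and 2.04 ± 0.34. The subunit Rel rose by 1.91 ± 0.24. Nfkbia, the inhibitor that holds NF-kB in the cytoplasm, was among the 10 largest rises in signal units, at 24696, 24780.0 and 24355 in IP hearts and 12103, 9675 and 13872 in control hearts. The faller was Ikbkg (-0.31), the regulatory subunit of the activating kinase, whose call ended under 6 settings. Otud1, a deubiquitinase, belonged to no list and rose by 3.70 ± 0.19, with 11432, 7176 and 7383 units in IP hearts and 611, 813 and 522 in control hearts.

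Feedback inhibitors of MAP kinases followed the same direction: 6 of 15 rose and 1 fell. Dusp5, a nuclear phosphatase of ERK, rose by 2.30 ± 0.56, although the call ended without the first control array (adjusted p = 0.0542) and with robust moderation (0.0556). Spred1 and Spry4, inhibitors of RAS signalling, rose by 0.88 ± 0.17 and 0.87 ± 0.20. The faller was Spred2 (-0.45), whose call ended under 3 settings. Only 3 of the 15 were higher when the first IP or the first control array was left out.

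The decay of mRNA limits how long cytokine messages last. Of 30 genes of mRNA decay 3 rose and 3 fell, near the shares of all genes. The risers were Btg2, which recruits deadenylases (2.03 ± 0.28), Zc3h12a, an endonuclease that cuts Il6 mRNA (1.57 ± 0.21), and Zfp36, which binds AU-rich elements (1.02 ± 0.23). The fallers were Cnot8 (-0.63 ± 0.12), Cnot9 (-0.52 ± 0.13) and Tob1 (-0.40 ± 0.13), of which Cnot8 and Cnot9 are parts of the CCR4-NOT deadenylase and Tob1 binds it. The call of Tob1 ended under 10 settings and that of Cnot9 under 1.

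Of 19 C/EBP factors and glucocorticoid-induced genes 9 rose and 1 fell (median 0.45). The other 9 did not pass, among them the glucocorticoid-induced genes Tsc22d3 (0.15), Sgk1 (-0.20), Klf15 (0.12) and Ddit4 (-0.31). The part of glucocorticoids in the rises was not tested. Cebpd, a factor of the acute-phase response, read 8373, 6800.2 and 7646 in IP hearts, against 1505, 1021 and 3327 in control hearts. Fkbp5, a chaperone that lowers the hormone affinity of the glucocorticoid receptor, read 4231, 3766 and 3962 in IP hearts, against 938, 495 and 1629 in control hearts. Lcn2, an iron-binding acute-phase protein, rose by 2.47 ± 0.33. The control arrays spread more than the IP arrays in Cebpd and Fkbp5, and the third control array was the highest of the 3 in both. The faller was the receptor itself, Nr3c1, at 1470.4, 1324 and 1371 in IP hearts and 1918, 2412 and 1706 in control hearts (-0.52 ± 0.12). Zbtb16 also rose (2.06 ± 0.59), a call that ended under 8 settings.

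In the machinery of growth median changes were small, and the genes that passed all rose. Of 43 genes of ribosome biogenesis 7 rose (16.3%, against 6.54% of all genes) and none fell (0%, against 10%). Their median was 0.12, and 3 rose where a gene's probe sets were averaged. Ppan, a factor of the large subunit, read 307, 252 and 245 in IP hearts, against 113, 134 and 160.4 in control hearts. The nucleolar GTPase Gnl3 was at 0.54 ± 0.13, but at -0.02 as the mean of its probe sets. Of 18 cytosolic tRNA synthetases 1 rose (5.56%), Sars (0.46 ± 0.12). Its call ended with the mean of its probe sets (0.21, adjusted p = 0.257) and without the first IP or the first control array (0.0535 and 0.0701). Of 22 amino acid transporters 3 rose (13.6%) and none fell. They were Slc38a2, a glutamine carrier (0.72 ± 0.10), Slc3a2, the shared heavy chain of several carriers (0.59 ± 0.11), and Slc7a6 (0.55 ± 0.14), whose call ended under 4 settings and which was at 0.32 as the mean of its probe sets. Of 52 initiation factors and related genes 6 rose (11.5%) and none fell. Eif1a, which helps the ribosome find the start codon, led them at 1.24 ± 0.15. The count of risers was 3 with quantile normalization, and 3 without the first or the third IP array.

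Of 31 matrix proteases, their inhibitors and coagulation genes 13 rose (41.9%) and 4 fell (12.9%, near the 10% of all genes). Adamts1, a protease of matrix proteoglycans, read 7299, 6041 and 6876 in IP hearts, against 932, 787 and 1439 in control hearts. Adamts1 and its relative Adamts4 rose by 2.70 ± 0.17 and 2.74 ± 0.22, and Serpina3n, an acute-phase inhibitor of proteases, by 2.71 ± 0.42. The fallers, named after their values were seen, were Adamts5 (-1.09), Adamts10 (-0.68), Mmp11 (-1.26, with 2 control arrays) and Mmp15 (-0.93). Of these, Adamts10 lost its call under 7 settings and Mmp11 under 2. Among proteoglycan-cleaving ADAMTS members, Adamts1 and Adamts4 rose and Adamts5 fell. Collagen chains did not join the rise: of 25, none rose and 1 fell, Col3a1 of fibrillar collagen, whose arrays overlapped (4386, 5808 and 3283 in IP hearts, 5302, 9325 and 10414 in control hearts) and whose call ended under 8 settings.

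Genes of the cytoskeleton and targets of SRF and YAP, transcription factors that read the state of actin and the stretch of the cell, were mostly in one direction: 18 of 33 rose (54.5%) and 1 fell (median 0.35). With quantile normalization 12 of the 33 were higher, and 10 where probe sets were averaged or zeros kept. The large ones were Rnd1, an atypical small GTPase that loosens actin fibres (715, 625 and 548 units in IP hearts, 82.3, 105 and 50.9 in control hearts), Ccn2, a matricellular YAP target (24392, 18787 and 24204 in IP hearts, 3928 and 2866 on 2 control arrays), and Flnc, a muscle filamin (1.39 ± 0.24). Ccn1, a relative of Ccn2, rose by 1.49 ± 0.30. The faller was Ajuba, a LIM protein that restrains the Hippo kinases (-1.23 ± 0.17).

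Among 35 genes of vasoactive peptides, nitric oxide and prostanoids 10 rose and 4 fell, and 6 rose and 2 fell where probe sets were averaged or the first IP array was left out. The receptors of endothelin moved in opposite directions. Ednrb, which on endothelium clears endothelin and releases nitric oxide, read 3498, 2806 and 2613 in IP hearts, against 1126, 905 and 1059 in control hearts. Ednra, which constricts vessels and muscle, read 498, 395 and 443 in IP hearts, against 1194, 1053 and 1462 in control hearts. IP and control arrays did not overlap for Ednrb (1.51 ± 0.13) or Ednra (-1.43 ± 0.16), and both calls held under all 18 alternatives. Ptgs2, the inducible cyclooxygenase, rose by 3.75 ± 0.19 (2 control arrays), and Agt, the angiotensin precursor, by 2.30 ± 0.32. Gucy1a1 and Gucy1b1, which together form the nitric oxide receptor guanylyl cyclase, fell by 0.85 and 0.67 on the log2 scale, and Calcrl, a receptor of adrenomedullin, by 0.69; each of these 3 calls ended under at least 1 setting.

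Of 36 TGF-beta, BMP and ID genes 8 rose (22.2%) and 3 fell (8.33%, near the 10% of all genes). Bmp4, a ligand, read 1561, 1062 and 1789 in IP hearts, against 462, 355 and 369.8 in control hearts. Inhbb, which encodes an activin subunit, rose by 1.20 ± 0.25. The 3 fallers were the receptors Acvr1 (-1.22 ± 0.19), Acvr2a (-0.59 ± 0.13) and Acvrl1 (-0.51 ± 0.13), and each lost its call under at least 1 setting. Among 33 growth factors and receptors 4 rose and 4 fell, 12.1% each against 6.54% and 10% of all genes, with a median of -0.05. The risers included Hbegf and Ereg, ligands of the EGF receptor (3.12 ± 0.26 and 1.86 ± 0.44), and Igfbp3, which binds IGF (1.01 ± 0.21). The fallers were Erbb3 (-0.66), Igfbp6 (-0.47), Pdgfb (-0.43) and Pdgfd (-0.47), with all but the call of Erbb3 lost under at least 4 settings. Under 7 of the 18 alternatives 2 of the 33 were lower. These 7 include leaving out the second IP, the first control or the third control array.

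In metabolism the largest rises were those of single genes. Pdk4, which keeps pyruvate out of the mitochondrion, read 45472, 46732 and 37169 in IP hearts, against 21457 and 7779.5 on 2 control arrays, the largest rise in signal units after Mt1 and Mt2, which encode metallothioneins. Nmrk2, the muscle kinase of nicotinamide riboside, rose by 2.44 ± 0.32 and Sat1, which acetylates polyamines, by 1.34 ± 0.15. Arg2, mitochondrial arginase, rose by 2.22 ± 0.48, and Nmnat1, the nuclear enzyme of NAD synthesis, fell (-0.75 ± 0.14). Of 27 genes of lipolysis and PPAR regulation 7 rose and 3 fell. G0s2, the inhibitor of adipose triglyceride lipase, read 473, 676 and 1093 in IP hearts, against 2188, 2752 and 2610.4 in control hearts. Ppargc1a, a coactivator of mitochondrial genes, read 10860.2, 10825 and 8802 in IP hearts, against 3471, 4018 and 4589.6 in control hearts. Its relative Ppargc1b and its partner Esrra fell (-0.54 and -0.46), calls that each ended under 9 settings.

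Of 14 sphingosine-1-phosphate enzymes and receptors 2 rose, the kinase Sphk1 (3.97 ± 0.30) that makes this lipid and the lyase Sgpl1 (0.62 ± 0.18, a call that ended under 7 settings) that breaks it down. Of 25 cholesterol genes 1 rose (4%), Fdft1 (0.38), and 2 fell (8%), Msmo1 (-0.97) and Hmgcs1 (-0.40), near the shares of all genes. The call of Fdft1 ended under 3 settings, that of Msmo1 under 6 and that of Hmgcs1 under 9. Of 226 solute carriers 18 rose (7.96%) and 23 fell (10.2%), close to the shares of all genes. The largest rises were those of Slc10a6, a carrier of sulfated steroids (3679, 3117 and 3034 in IP hearts, 411, 262 and 936 in control hearts), and Slc25a33, a mitochondrial pyrimidine nucleotide carrier (11162, 9367 and 5175 in IP hearts, 1642, 1281 and 1486 in control hearts). When 1 array was left out, the fallers numbered 10 without the second control, 15 without the third control and 13 without the first IP array.

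Of 26 genes of calcium handling 4 rose and 4 fell, with 2 lower without the first IP, the second IP or the second control array. Camk2b, a subunit of calmodulin kinase II, read 4438, 3231 and 3148 in IP hearts, against 822, 978 and 1136 in control hearts. The NFAT factors, which calcineurin activates, split: Nfatc2 rose by 1.06 ± 0.16 and Nfatc3 fell (-0.73 ± 0.13), while the calls of Nfatc1 (-0.41) and of Nfatc2 ended with the mean of all probe sets. Atp2a2 (0.28, 2 control arrays), Rcan1 (0.90, 2 control arrays) and Cacnb2 (-0.42) passed too. The calls of Atp2a2 and Cacnb2 each ended under 6 settings and that of Rcan1 under 1. With quantile normalization Atp2a2 was at 0.06, and as the mean of its probe sets Cacnb2 was at 0.08. Slc8a1, the sodium-calcium exchanger, was at -0.74 ± 0.17 by its brightest probe set and at 0.09 as the mean of its probe sets. Another of its probe sets passed in the upward direction. Klhl40, a stabilizer of thin filaments, rose by 1.83 ± 0.30. Of 27 muscle ubiquitin ligases and autophagy genes 5 rose and 3 fell, with 1 higher when no trend with intensity was fitted, 2 without the first IP or the second control array and 3 without the first control array. Foxo3, a factor that switches on atrophy genes, rose by 0.73 ± 0.15, Gabarapl1, which coats autophagosomes, by 1.02 ± 0.25 (2 control arrays, a call that ended under 5 settings), and Atg5, which attaches such coat proteins to lipid, fell (-0.67 ± 0.15). Asb2, part of a ubiquitin ligase for filamins, had the largest fall in signal units, at 9940.3, 10133 and 6572 in IP hearts and 15656, 13087 and 15088 in control hearts.

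**Figure D3:**
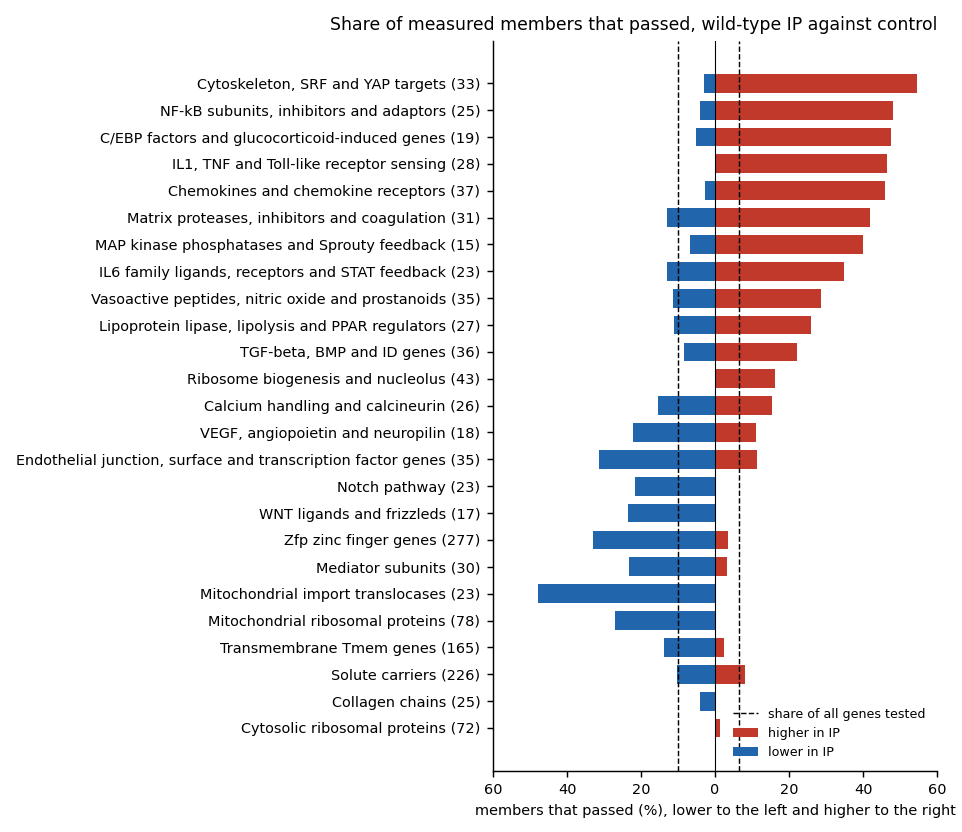
Bars give the percentage of measured members of 25 lists and families that were higher (red, to the right) or lower (blue, to the left) in wild-type IP than control hearts, with the number measured in parentheses. Dashed lines mark the shares over all genes, 6.54% higher and 10% lower. Cytoskeletal genes reach 54.5% higher, and import translocases reach 47.8% lower.

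Among the fallers the zinc finger genes stood out by number. Genes with Zfp symbols mostly encode C2H2 zinc finger proteins, many of them DNA-binding repressors with a KRAB domain. Of 277 measured, 91 were lower (32.9%) and 10 higher (3.61%), with a median of -0.41, and 231 of the 277 had a value below 0. Without the second control array 60 were lower, without the third IP array 6 were higher, and with quantile normalization 95 were lower. They were not only dim genes: the share that fell was 12.7% in the dimmest of the 5 classes, then 40.4%, 35.8% and 44.4%, and 1 of 7 fell in the brightest class. The median span of a Zfp gene was 14.6 kb.

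Zfp799 read 111, 159 and 121 in IP hearts, against 720.1, 703 and 420.4 in control hearts (-2.08 ± 0.24). Zkscan8, another zinc finger gene with a different symbol, read 154, 209.7 and 170.4 in IP hearts, against 643, 562 and 586 in control hearts (-1.67 ± 0.16). In both genes the gap between the highest IP and the lowest control array was wider, on the log2 scale, than the spread within either group. Zfp354b read 6.90, 40.5 and 45.5 in IP hearts and 155, 146 and 158 in control hearts, and Zfp133-ps, a pseudogene by its name, read 33.1, 15.6 and 65.3 in IP hearts and 179, 132 and 125 in control hearts. Zfp36, listed above as a riser, shares the letters but is a CCCH protein that binds RNA.

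Mitochondrial ribosomal proteins, which translate the few genes of mitochondrial DNA, were lower almost throughout by small amounts. Of 78 measured, 21 fell and none rose. The values of 77 were below 0, the median was -0.21 and the range ran from -0.78 to 0.01. Mrps2 read 1375, 1801 and 1675 in IP hearts, against 2514, 2518 and 2955 in control hearts, and Mrpl34 read 2108, 2579 and 2423 in IP hearts, against 4359 and 3785 on 2 control arrays. The count of fallers was 7 without the first IP array, 10 without the first control array and 30 with quantile normalization.

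Import translocases, the TIMM and TOMM proteins that bring precursors into mitochondria, had 11 of 23 lower and none higher, and a median of -0.25. Of the 23, 4 were lower without the first IP array, 5 without the first control array and 7 without the second. Timm9, a chaperone of the space between the membranes, was at -0.94 ± 0.28, but its arrays overlapped and its call ended under 8 settings. Timm8a1, another such chaperone, was at -0.70 ± 0.13 on 2 control arrays. Further fallers with large signals were Coa5, an assembly factor of cytochrome c oxidase, at 6080.4, 7033 and 6056 in IP hearts and 8902, 9473 and 9892 in control hearts, and Bola3, which serves iron-sulfur proteins (-0.31 ± 0.08, a call that ended without the first IP array at adjusted p = 0.0631 and without an intensity trend at 0.0602).

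**Figure D4:**
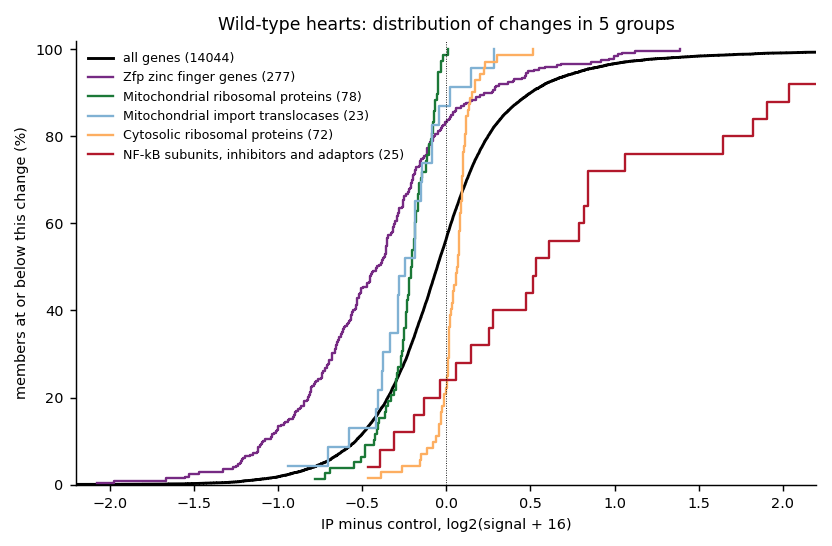
Curves give the percentage of genes at or below each IP minus control difference, in log2(signal + 16) units, for all 14044 genes (black) and for 5 groups. The median lies at -0.41 for Zfp genes, -0.25 for import translocases, -0.21 for mitochondrial ribosomal proteins, 0.06 for cytosolic ribosomal proteins and 0.53 for NF-kB genes.

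Subunits of the respiratory chain and of cytosolic ribosomes did not fall with these groups. Of 72 cytosolic ribosomal proteins 1 rose (Rplp0, 0.30 ± 0.05) and none fell; their median was 0.06, and -0.05 with quantile normalization, which put 2 lower. Of 16 cytochrome c oxidase subunits 6 rose and 1 fell (Cox8a, -0.23, lost under 11 settings), and of 17 ATP synthase subunits 4 rose, among them Atp5g3 (0.24 ± 0.05, and 0.06 with quantile normalization, where its call ended, as it did without an intensity trend). With quantile normalization no oxidase or synthase subunit rose, the oxidase median of 0.18 became -0.01 and the synthase median of 0.12 became -0.02. Leaving out 1 array other than the third control put 0 to 3 oxidase subunits and 1 to 2 synthase subunits higher. Of 36 complex I subunits 1 rose (Ndufv1, 0.19, lost under 8 settings), with a median of 0.04, and quantile normalization gave a median of -0.10 with 8 lower. Total signals were 37843763 to 38028196 on IP arrays and 35962578 to 37055934 on control arrays, and the part of brighter arrays in these small rises was not tested. In the authors' table the log2 differences of the risers Rplp0, Atp5g3 and Ndufv1 were 0.03, 0.02 and 0.07, and none of these was called. Of 49 proteasome genes 5 fell (10.2%, near the share of all genes) and 1 rose (2.04%), Psmd11 at 0.44, a call lost under 7 settings. Only 1 was lower without the first IP array, 2 without the third IP or the first control array and 3 without the second control array.

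Of 30 Mediator subunits, which bridge enhancers and RNA polymerase II, 7 fell (23.3%, against 10% of all genes) and 1 rose, and Med23 read 259.9, 266 and 279.6 in IP hearts, against 456, 485 and 432 in control hearts. Leaving out the first IP array gave 4 lower Mediator genes, and 3 were lower with zeros kept or when the third IP, the first control or the second control array was left out. Of 165 genes named Tmem, a mixed class of membrane proteins, 23 fell (13.9%) and 4 rose (2.42%). The fallers numbered 13 when the first IP array was left out, or 15 when the third IP, the first control or the second control array was. Of 43 ubiquitin-specific proteases 6 fell (14%) and 2 rose (4.65%), with a median of 0.01, and 3 fell without the first IP array or the third control array; Usp45 was lowest at -1.04 ± 0.14. Of 28 CLK kinases, SR proteins and partners, which set splicing, 6 fell (21.4%) and 4 rose (14.3%), with a median of -0.03: Clk4 rose by 0.67 ± 0.14 and Clk2 fell (-0.61 ± 0.13), and 2 were lower without the third IP or the second control array and 3 without the third control array.

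Genes of the vessel lining fell more often than they rose in IP hearts. Of 35 genes of endothelial junctions, surface and transcription factors 11 fell (31.4%) and 4 rose, with a median of -0.19. Aplnr, the receptor of apelin, read 803, 902 and 875 in IP hearts, against 5434, 8612 and 3734 in control hearts. Pcdh12, a protocadherin of endothelial junctions, read 74.4, 73.4 and 27.7 in IP hearts, against 406, 680.2 and 470.1 in control hearts. These were among the 4 largest relative falls of all genes that fell, and the IP and control arrays were far apart. Egfl7, a secreted vessel protein, fell to 563, 809 and 831 in IP hearts, against 1731, 1785 and 1453 in control hearts.

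The SOXF factors, which specify arterial and lymphatic endothelium, went apart. Sox18 read 1019, 1389 and 1491 in IP hearts, against 2251, 2955 and 2419 in control hearts (-0.97 ± 0.16), and Sox17 read 2656, 3169 and 2678 in IP hearts, against 1428, 1214 and 1937 in control hearts (0.91 ± 0.18). Both calls held under all 18 alternatives. The other risers of the list were Ptprb (0.44), Ets2 (0.59) and Esam (0.33), and the calls of Ets2 and Esam ended under 5 and 10 settings. Without the first IP, the third IP or the first control array 2 of the 35 were higher. Klf2, a factor that blood flow keeps high in endothelium, read 1038, 1009.9 and 979.5 in IP hearts, against 2085, 2270.0 and 2144 in control hearts.

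Of 23 Notch pathway genes 5 fell and none rose. Nrarp, a feedback inhibitor that Notch induces, read 309.6, 275 and 269.9 in IP hearts, against 641, 809 and 625 in control hearts, and its call held under all 18 alternatives. The targets Hey1 and Heyl fell (-0.77 ± 0.20 and -0.75 ± 0.19), as did Hes6 (-0.47) and Rfng (-0.43). The call of Hey1 ended under 2 settings and that of Heyl under 3, but those of Hes6 and Rfng ended under 12 and 11 of the 18. Without the second control array Nrarp alone of the 23 was lower, without the first IP array 2 were, and 3 without the second or the third IP array or the third control array. Of 18 VEGF and angiopoietin genes 4 fell and 2 rose. Kdr, the main VEGF receptor, read 1522, 1898 and 1472 in IP hearts, against 3029, 3772 and 3470.5 in control hearts. Its coreceptor Nrp1 and the ligands Vegfa and Vegfc fell as well (-0.77, -0.65 and -0.71, with the call of Vegfc lost under 4 settings and that of Nrp1 under 1), whereas the ligand Pgf rose (1.20 ± 0.24). The other riser was Angptl4 (2 control arrays), an inhibitor of lipoprotein lipase. Of 17 WNT ligands and frizzled receptors 4 fell and none rose, with 2 lower without the first IP or the second control array.

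The endothelial marker list moved with these genes. Of its 6 members 3 fell and none rose, and their summed signal was 8124 to 8684 in IP hearts and 10547 to 13026 in control hearts; Kdr is itself one of the 6. The part of a lower endothelial share in the vessel, Notch and VEGF values was not tested. No marker of mural cells passed, and 1 of 6 fibroblast markers fell, Col3a1.

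Of 14 measured markers of the epicardium and mesothelium, the outer lining of the heart, 2 fell (14.3%) and 1 rose (7.14%). Over all genes these shares were 10% and 6.54%. Upk3b read 9.93, 14.7 and 2.03 in IP hearts, against 106, 124 and 159.9 in control hearts. Upk1b read 12.0, 10.8 and 6.36 in IP hearts, against 70.8, 76.7 and 85.3 in control hearts. The IP signals of both genes are low, and whether they lie above background was not tested. The size of these falls therefore depends on the offset. The authors' own log2 difference for this contrast was -0.29 for Upk1b, not called, and -1.02 for Upk3b, called lower. Wt1, a transcription factor of the epicardium that endothelium can also express after injury, read 229, 366 and 200.3 in IP hearts, against 76.8, 118 and 164 in control hearts; its call ended without the second IP array (adjusted p = 0.0652) and without the first control array (0.0645). The remaining 11 did not pass. The summed signal of 3 mesothelial markers, Upk3b, Upk1b and Wt1, was 209 to 391 in IP hearts and 254 to 410 in control hearts. Wt1, which rose, made up most of it in IP hearts (mean signal 265, against 8.90 for Upk3b and 9.71 for Upk1b). The sum therefore does not show the fall of the other 2. Of 9 Schwann cell and neuronal genes Pmp22 rose (0.51 ± 0.10, 2 control arrays) and Cnp fell (-0.52 ± 0.16, a call that ended under 10 settings).

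Other large falls had no list in common. Rarb, a retinoic acid receptor, read 208, 218 and 236 in IP hearts, against 675, 726 and 791 in control hearts. Chek2, a kinase of the DNA damage response, read 98.0, 68.6 and 94.3 in IP hearts, against 271, 456 and 313 in control hearts. Egr3, an early growth response factor, read 190.0, 213 and 217 in IP hearts, against 1428, 1255 and 301 in control hearts, where the third control array lay much closer to the IP arrays. Gpr22, an orphan receptor of heart muscle, read 326, 585 and 817 in IP hearts, against 1521, 1439 and 1128 in control hearts. Parp16, an ADP-ribosyltransferase of the endoplasmic reticulum, read 7.57, 56.0 and 51.2 in IP hearts, against 127, 244 and 179 in control hearts. Of 19 proliferation genes 2 fell (10.5%, near the share of all genes), Ccne2 (-1.20 ± 0.26) and Cdc20 (-0.83). The call of Cdc20 ended under 10 settings.

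One of the 10 largest rises in signal units was that of an erythroid gene. Hba-a1, alpha globin, read 41956, 36272 and 44319 in IP hearts and 20542, 25891 and 35189 in control hearts, and the summed signal of 3 erythroid markers was 36613 to 45045 in IP hearts and 20685 to 35682 in control hearts. The part of retained blood was not tested. Of 8 macrophage markers 1 rose, and their summed signals overlapped, at 8460 to 9890 in IP hearts and 7154 to 11132 in control hearts.

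The A2BAR-/- hearts gave the same contrast on arrays that share none with the wild-type groups. The spread of each gene was, however, estimated from all 12 arrays together. Passing in one genotype is therefore not independent of passing in the other. Of the 918 wild-type risers 820 (89.3%) had a difference in the same direction there and 516 (56.2%) also rose, which is 76.2% of the 677 genes that rose in A2BAR-/- hearts. Of the 1410 fallers 1359 (96.4%) had the same direction and 598 (42.4%) also fell, which is 58.2% of the 1028 genes that fell in A2BAR-/- hearts. In that genotype 12.1% of genes passed in all. The share that passed in both was higher for larger changes: 279 of the 369 genes that rose at least 2-fold (75.6%) and 101 of the 112 that rose at least 4-fold (90.2%) also rose in A2BAR-/- hearts. The median of the wild-type risers was 0.84 in wild type and 0.64 in A2BAR-/- hearts, and that of the fallers -0.61 in wild type and -0.40 in A2BAR-/- hearts. These genes were chosen for passing in wild type, so the lower medians in A2BAR-/- hearts are no test of a difference. The Zfp genes had 72 of 277 lower and 12 higher in A2BAR-/- hearts (median -0.42), NF-kB genes 14 of 25 higher and 1 lower, and mitochondrial ribosomal proteins 3 of 78 lower (median -0.10).

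The test of the difference between the genotypes, wild-type minus A2BAR-/- change, put none of the 14044 genes (0%) below an adjusted p of 0.05 by limma, with a smallest adjusted p of 0.325, while 1105 genes (7.87%) had an unadjusted p below 0.05. A gene that passed in wild type and not in A2BAR-/- hearts is therefore not shown to differ between them. Aplnr was at -2.68 ± 0.33 in wild type and -1.57 ± 0.33 in A2BAR-/- hearts, and Pcdh12 at -2.89 ± 0.32 in wild type and -1.06 ± 0.32 in A2BAR-/- hearts. For Pcdh12 the difference had an unadjusted p of 0.00123 and a limma adjusted p of 0.399.

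**Figure D5:**
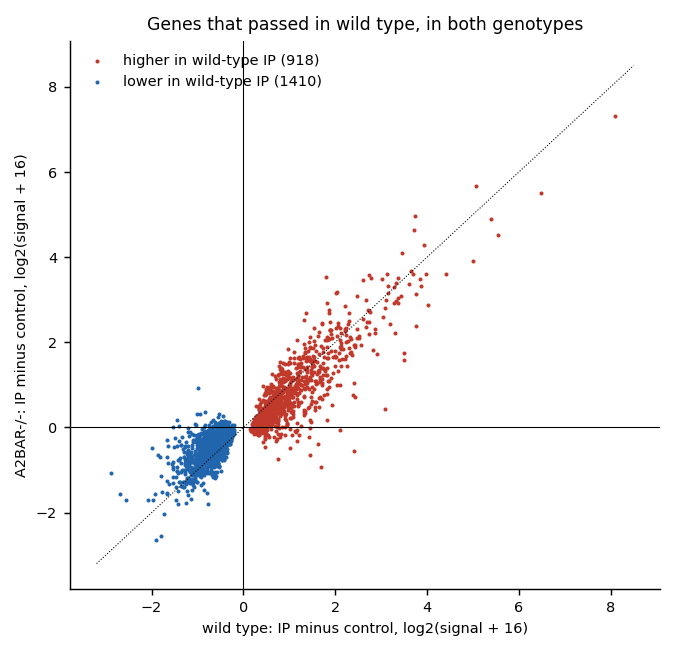
The 918 risers (red) and 1410 fallers (blue) of wild-type hearts, by their IP minus control difference in wild type (x axis) and in A2BAR-/- hearts (y axis), in log2(signal + 16) units. The dotted line marks equal changes; 89.3% of the risers and 96.4% of the fallers have the same direction in both genotypes.

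Further checks bear on single calls. Genes are represented by their brightest probe set, and the other probe sets of the risers had the same direction in 793 of 894 cases (88.7%) and those of the fallers in 972 of 1252 (77.6%). The shares were 95.0% for genes at least 2-fold higher and 80.7% for genes at least 2-fold lower. Of the other probe sets of risers, 322 passed in the same direction and 3 in the opposite one. Of those of fallers, 277 passed in the same direction and 10 in the opposite one. Of 567 genes that passed with an at least 2-fold change, 381 (67.2%) are on the list of 2-fold changes in the authors' deposited table for this contrast, all with the same direction, which makes up 80% of the 476 listed probe sets that were tested here.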

How the data were processed

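The deposited values are signal intensities of Affymetrix mouse arrays on a linear scale; MAS5 is the tool that the submitters' processing notes name, without a scaling target. A further table of the authors adds log2 differences and a decision score of -1, 0 or 1 per probe set, per the file headers, with gene symbols and positions of unnamed build.

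Of 45101 probe sets 64 controls were left out, and 40137 of the rest had 1 symbol, 1232 several and 3668 none; 36287 were matched to current symbols through Entrez identifiers. The run of 1425 zeros on the third wild-type control array (median 639.4 on other arrays) was set to missing. Values were log2(signal + 16), which understates changes of dim genes, filtered at the 40th percentile of mean level, and a gene was measured by the brightest of its probe sets. All 12 arrays were fitted in 1 model of 4 groups with limma 3.58.1 in R 4.3.3 (intensity trend, 8 residual degrees of freedom), and p-values were adjusted by Benjamini-Hochberg. The number of arrays limits the precision. The script was tested on simulated data. Alternatives covered the offset, filter, normalization, moderation, probe set rule, zeros, replicate block and each array left out.

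Same-numbered arrays did not deviate together (correlations -0.05, 0.038 and 0.07), so the numbers pair nothing, and no 2 arrays were identical. Genes were named by rule (246): the 30 largest rises and falls with separate groups, the 10 largest in signal units, up to 4 per list and up to 2 per family. A further 43 were named after their values were seen. Results of a few genes are not reported here. Genes and lists were chosen with earlier results of these data known.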

Additional observations from a re-analysis of the deposited data

Results flagged for a closer look

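In each of 4 named genes the IP and control arrays did not overlap in either genotype and moved in opposite directions in wild-type and A2BAR-/- hearts. The 4 were flagged for this pattern, which is therefore a description. Over all genes the wild-type IP and control arrays did not overlap in 33.5%. In none of them did the difference between genotypes pass after adjustment over all genes. Parn, a deadenylase, rose by 0.48 ± 0.12 in wild type and was at -0.46 ± 0.12 in A2BAR-/- hearts, a difference of 0.94 (limma unadjusted p = 8.81e-05, adjusted p = 0.325). Its signals were 507, 455 and 529 in wild-type IP and 338, 377 and 340.4 in wild-type control hearts, and 369.5, 313 and 353 in A2BAR-/- IP and 514, 449 and 481 in A2BAR-/- control hearts. Sugp1, a splicing factor, was at 0.43 ± 0.10 in wild type and -0.33 ± 0.10 in A2BAR-/- hearts, a difference of 0.76 (limma unadjusted p = 0.000121, adjusted p = 0.325). Parn and Sugp1 were named after their values were seen, because they passed in both genotypes with opposite signs. The A2BAR-/- call of Sugp1 lay close to the threshold (limma adjusted p = 0.0498). The wild-type call of Parn ended without the first IP array (adjusted p = 0.0574), the third IP array (0.0611) or the first control array (0.0516). Pink1, a kinase of mitochondrial quality control, was at 0.27 ± 0.07 in wild type and -0.14 ± 0.07 in A2BAR-/- hearts, a difference of 0.41 (limma adjusted p = 0.325). Its wild-type call ended with quantile normalization, at 0.15 (adjusted p = 0.0806), without an intensity trend (0.0696) and without the third IP array (0.0525). Fdft1, squalene synthase, was at 0.38 ± 0.10 in wild type and -0.14 ± 0.10 in A2BAR-/- hearts, a difference of 0.52 (limma adjusted p = 0.470). Its wild-type call ended with the 6 wild-type arrays fitted alone (adjusted p = 0.0542) and when the second control array (0.0599) or the third IP array (0.0737) was left out.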

How the results depend on the processing

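The number of genes that passed was 1420 to 2016 when 1 wild-type array at a time was left out, against 2328, with 580 to 893 higher and 840 to 1178 lower. It was lowest without the first IP array, and 883 genes were lower without the second control array. With the replicate number as a block, although the numbers pair no samples, 2188 genes passed, 900 higher and 1288 lower. Quantile normalization gave 2288 genes (791 higher, 1497 lower) and averaging the probe sets of each gene 1883. Of 5148 alternative values of single genes 4545 kept direction and call, 594 lost the call and 9 changed sign; 159 of 289 genes kept the call throughout. With the run of zeros kept as values, Cavin2 came to 2.30, Mrpl34 to 1.89, Timm8a1 to 1.65 and Mmp11 to 0.00, since each then averages a 0. With the mean of all probe sets, Gnl3 came to -0.02, Mycn to 0.16, Slc8a1 to 0.09, Cacnb2 to 0.08 and Nfatc1 to 0.29. Other probe sets of these genes then enter the value.

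The data are limited to 3 arrays a group of whole-tissue RNA at 1 time, 2 h after IP, and separate animals are not stated. Dim genes depend on the offset, with 141 genes at least 4-fold higher at an offset of 1 and 78 at 64.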

Other observations

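Further families are given beside the shares of all genes, 6.54% higher and 10% lower. Of 16 Kruppel-like factors 4 rose (25%) and 3 fell (18.8%), with Klf5, a factor of proliferating smooth muscle, at 1.25 ± 0.38 (a call that ended under 8 settings) and Klf2 at -1.09 ± 0.16. Of 18 nuclear receptors 1 rose and 4 fell (22.2%): the early gene Nr4a1 was at 1.5 ± 0.26 (2 control arrays, a call that ended with zeros kept) and Nr1h3, the oxysterol receptor LXR alpha, at -0.88 ± 0.18. Of 20 forkhead factors 2 rose and 2 fell, near the shares of all genes, among them Foxc1 (0.79 ± 0.18, but 0.31 as the mean of its probe sets, adjusted p = 0.319) and Foxs1 (-1.53 ± 0.33). Of 32 histone demethylases and methyltransferases 4 fell (12.5%), 2 of them without the third IP, the first control or the second control array, and 1 rose, Kdm6b, which removes a repressive mark from histone H3, with 2001, 1388 and 1750.4 units in IP hearts and 563, 591 and 631 in control hearts. Of 17 histone deacetylases and sirtuins Hdac4 rose (0.72 ± 0.16) and mitochondrial Sirt3 fell (-0.46 ± 0.11), beside 1 other in each direction, which is near the shares of all genes. The call of Hdac4 ended with the mean of its probe sets (0.33, adjusted p = 0.244) and that of Sirt3 without the first IP array (-0.34, adjusted p = 0.0574).

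Of 52 F-box genes, adaptors of ubiquitin ligases, 7 fell (13.5%, near the 10% of all genes) and 1 rose, and none was lower without the first control array, 1 without the second, 2 without the first or the second IP array and 3 without the third. Of 16 ASB genes 4 fell (25%) and 1 rose, and 2 were lower without the second control array, with Asb1 at -1.0 ± 0.17. Of 24 integrins and integrin-binding genes 2 rose and 4 fell, with none lower without the second IP or the second control array, 1 without the first IP, the third IP or the first control array and 2 without the third control array; Itga5, the fibronectin receptor chain, rose by 1.33 ± 0.25, but was at 0.64 as the mean of its probe sets (adjusted p = 0.0671). Of 18 serpins 6 rose, and 3 without the first IP array. Of 21 phosphodiesterases 2 rose and none fell, Pde4b (1.10 ± 0.16) and Pde12 (0.47 ± 0.11, but 0.20 as the mean of its probe sets, adjusted p = 0.300), and of 16 RGS proteins only Rgs16 passed (2.22 ± 0.49). Akap12, a scaffold of protein kinase A, read 11502, 7175 and 7069.6 in IP hearts and 1151, 1389 and 2086 in control hearts. Of 52 potassium channel genes 3 rose and 2 fell, led by Kcne4 (1.21 ± 0.16). Of 26 cytochrome P450 genes Cyp1b1 rose (2.12 ± 0.22, 2 control arrays) and Cyp2b10 fell (-1.45 ± 0.36, a call that ended under 4 settings).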
